A study of Arabidopsis thaliana with 18 samples.

Results

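The first developmental step of the seed, between 8-9 and 10-11 days after flower opening, was compared between 2 accessions (natural inbred lines) of Arabidopsis thaliana, C24 and Col-0. The quantity reported for each gene is an interaction: the change of C24 seeds between these stages minus the change of Col-0 seeds, on a log2 scale on which 1 unit is a 2-fold change. A positive interaction means that the gene rose more, or fell less, in C24. The 12 arrays that carry this comparison were taken by the titles of the samples from 18 in all, as 3 arrays each of C24 at 10-11 d, C24 at 8-9 d, Col-0 at 10-11 d and Col-0 at 8-9 d. The other 6 arrays, of both accessions at 12-13 d, were used to follow genes one stage further and entered the estimate of the spread. The labels name no mutation and no treatment in any group. Plants were grown with 16 h of light, flowers were tagged as they opened, and each RNA sample came from seeds dissected out of 48 siliques (the seed pods), 8 from each of 6 plants, mixed over 2 experiments. Each array is therefore a pool of whole seeds. Pools of a group, named biological replicates in the titles, may share plants, and p-values then measure only the spread between pools.

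At these ages the embryo has its basic form, cell division gives way to growth and filling, and the seed begins to store protein and oil. Storage proteins such as the cruciferins, oil body proteins and late embryogenesis abundant (LEA) proteins, which protect cells during drying, are switched on in sequence under a small set of maturation transcription factors. The seed coat passes through tannin and mucilage production in the same period, while photosynthesis and cell division genes decline. A bulk seed sample holds embryo, endosperm and seed coat together, so fewer cells of a type and less RNA per cell cannot be told apart.

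Signals were log2 values made with RMA, with array medians between 5.87 and 5.96. The correlation between arrays was 0.994 to 0.997 within groups and 0.92 to 0.985 between groups. No array stood apart over all probe sets. The source name field of all 18 samples gives the other accession from the one in the title, description and genotype field, which were used here. Were the source names right, every sign below would turn round. The array was designed on Col-0 sequence, and 18 probe sets were at least 2 log2 units lower in C24 at all 3 stages, against 9 that were higher, which does not settle the question. Seed markers were present: all 5 measured storage protein genes rose in both accessions, and the cruciferin family gene AT1G03890 read 13.54 to 13.65 in the C24 pools and 13.37 to 13.42 in the Col-0 pools at 10-11 d. Of the silique wall markers, ALC averaged 6.08 in C24 and 5.77 in Col-0 at 10-11 d. ADPG1, a polygalacturonase of pod opening, averaged 5.95 in C24 and 5.35 in Col-0 at 10-11 d. Neither had a called interaction. At 8-9 d ADPG1 averaged 5.56 in C24 and 4.69 in Col-0, a called difference of 0.86 (adjusted p = 0.0102). Its C24 pools then read 6.15, 5.26 and 5.26, and it rose in Col-0 alone, by 0.66 (adjusted p = 0.0282). Whether the pools held unequal amounts of pod wall was not tested. Of the 6 endosperm markers measured, 5 had all 4 group means under 5, where the scale flattens.

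Most of the first step was common to the accessions. Across 22746 probe sets the C24 step and the Col-0 step, which share no array, had a Pearson r of 0.876 and a Spearman rho of 0.757, and the slope of the C24 step on the Col-0 step was 0.913. Probe sets are not independent replicates, and the correlation is a description. In C24, 10058 probe sets changed between 8-9 and 10-11 d (44.2%), 4707 upward and 5351 downward. In Col-0, 8403 changed (36.9%), 3828 upward and 4575 downward. Those splits depend on the scaling: with arrays set to equal reference genes, which shifted all probe sets by 0.11 in the C24 step and 0.12 in the Col-0 step, they became 7277 upward and 4139 downward in C24, and 5640 upward and 3305 downward in Col-0. The median absolute step was 0.227 in C24 and 0.182 in Col-0.

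The step itself differed between the accessions for 1488 probe sets (6.54%) by limma's moderated test of the interaction at an adjusted p under 0.05. The interaction was positive for 708 (3.11%) and negative for 780 (3.43%). It reached 2-fold for 161 positive and 188 negative probe sets. Called interactions had a median size of 0.70, and the smallest called was 0.38, against a median standard error of 0.149 and a median interaction of 0.03 over all probe sets. The shift by reference genes moved all interactions by only -0.01. Of the 1488, 810 had 1 named gene. The 678 without 1 named gene included the highest interaction of all, 3.67, and they ran down to -3.21. In 402 of the 1488 (27%) the lowest of the 4 group means lay under 5, where RMA compresses differences, against 41.5% of all probe sets tested.

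**Figure D1:**
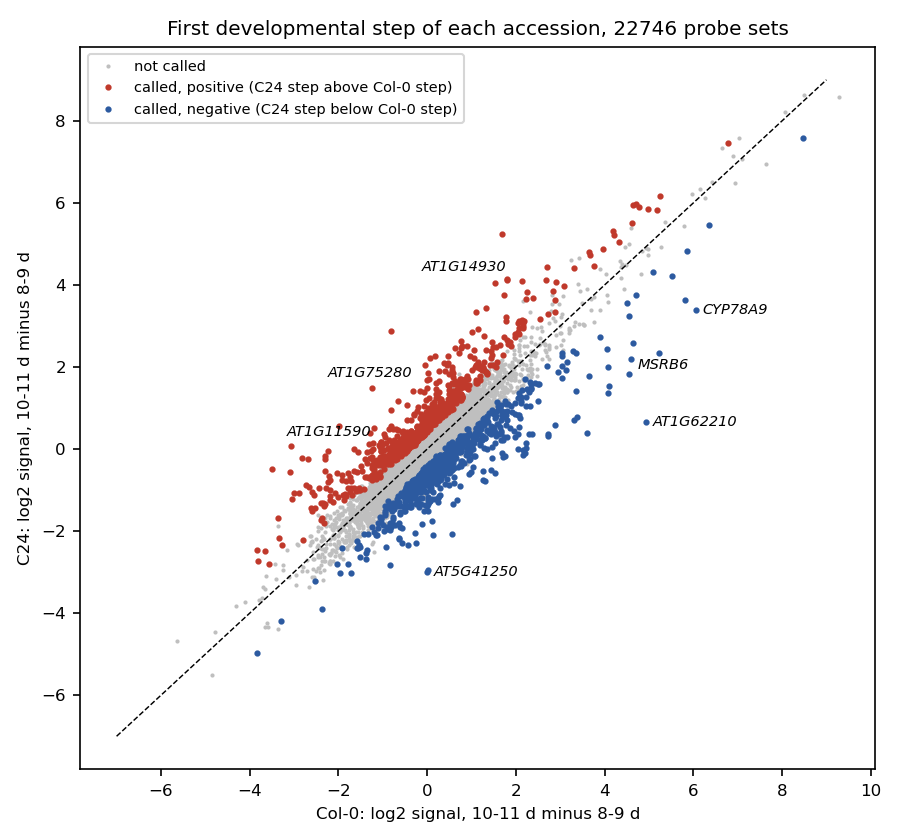
Change in log2 signal from 8-9 d to 10-11 d in C24 (vertical axis) against the same change in Col-0 (horizontal axis), 1 point per probe set; red and blue points had a called positive or negative interaction, and the dashed line marks equal steps. Most points follow the line, and AT1G62210 and AT5G41250 lie among the farthest below it, with interactions of -4.27 and -3.0.

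Changes in opposite directions were a small part of these differences, though a larger part than among all probe sets. Both accessions rose in 364 of the 1488 probe sets (24.5%, against 12.5% of all probe sets tested). Both fell in 253 (17%, against 15.9%). The genes of both classes differed in the size of a shared change. A rise was called in C24 alone for 207 (13.9%, against 8.01%) and in Col-0 alone for 171 (11.5%, against 4.08%). A fall was called in C24 alone for 244 (16.4%, against 7.35%) and in Col-0 alone for 144 (9.68%, against 3.99%). Opposite changes were called for 101 (6.79%, against 0.444%), of which 44 rose in C24 and fell in Col-0, and 57 did the reverse. These 101 were all the probe sets with opposite called changes. The classes use the same arrays as the interaction, so the shares are a description. The remaining 4 passed in neither step alone. The median interaction of the shared rises was 0.75 where C24 rose more and -0.87 where Col-0 rose more.

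**Figure D2:**
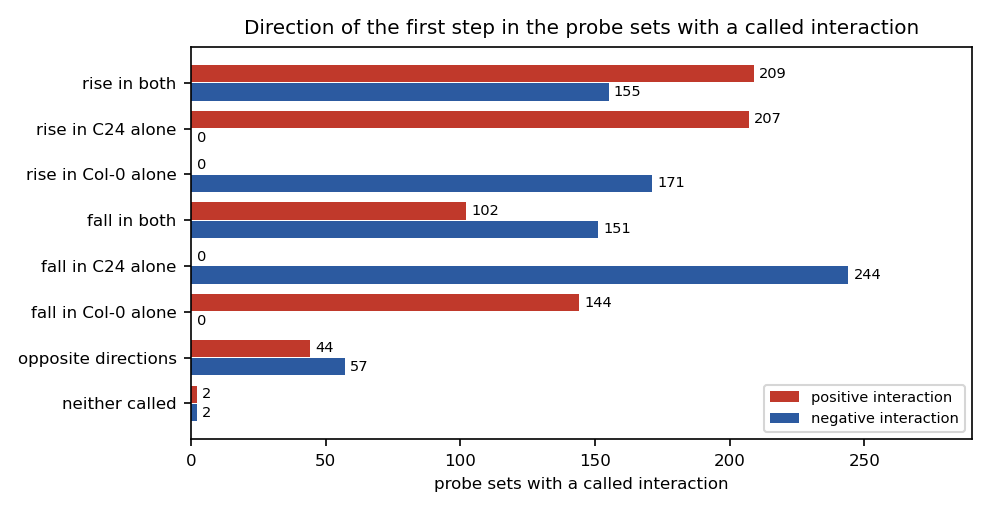
Number of probe sets with a called interaction (horizontal axis) by the direction of the step in each accession (vertical axis), split by the sign of the interaction. Falls called in C24 alone (244) and shared rises that were larger in C24 (209) were the 2 largest groups.

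The same 1488 probe sets were sorted by the stage at which the accessions differed, which uses the same arrays and is a description. At 8-9 d 4418 of all probe sets (19.4%) differed between C24 and Col-0, and at 10-11 d 4074 (17.9%). Among the called interactions, 573 (38.5%) differed at 8-9 d and no longer at 10-11 d, and 550 (37%) differed at 10-11 d but not before. Another 204 (13.7%) differed at both stages in the same direction, 113 (7.59%) at both in opposite directions, and 48 (3.23%) at neither. The differences that were called at 8-9 d alone were 341 probe sets higher in C24 and 232 lower in C24. Those that were called at 10-11 d alone were 318 higher in C24 and 232 lower.

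A first set of genes was higher in C24 at 8-9 d and rose more in Col-0, so that the accessions did not differ by a called amount at 10-11 d. AT1G62210, a gene with no role stated in the tables used here, had the lowest interaction of all. At 10-11 d its pools read 12.69, 12.76 and 12.88 in C24 and 12.76, 12.79 and 12.85 in Col-0. At 8-9 d they read 12.11, 12.32 and 11.92 in C24 and 8.55, 6.30 and 8.78 in Col-0. The groups overlapped at the later stage and were far apart at the earlier one. The Col-0 step was 4.93, the C24 step 0.66 (adjusted p = 0.15), and the interaction -4.27 ± 0.51 (SE, adjusted p = 1.28e-05). AT1G14950, of the major latex protein family, read 13.05, 13.13 and 13.02 in C24 and 12.79, 12.69 and 12.97 in Col-0 at 10-11 d, and 9.43, 9.91 and 8.97 in C24 and 7.37, 6.12 and 7.55 in Col-0 at 8-9 d. It rose in both accessions, by 3.63 in C24 and 5.81 in Col-0 (interaction -2.17 ± 0.35, adjusted p = 0.000384). MSRB6, a methionine sulfoxide reductase that repairs oxidised protein, read 11.66, 11.70 and 11.58 in C24 and 11.24, 10.93 and 11.22 in Col-0 at 10-11 d, and 9.82, 9.55 and 8.96 in C24 and 6.47, 6.09 and 7.04 in Col-0 at 8-9 d. Its 8-9 d difference of 2.91 was followed by differences of 0.51 and 0.41 that did not pass (adjusted p = 0.061 and 0.13).

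The same course was seen in AT2G40460, of the NPF family of nitrate and peptide transporters (interaction -2.06 ± 0.32), and in AT1G05450, of the lipid transfer protein family (-2.04 ± 0.38). In AT1G03890, of the cruciferin family, the steps were 2.44 in C24 and 4.06 in Col-0 (interaction -1.63 ± 0.47, adjusted p = 0.0423). The LEA gene AT3G02480 rose by 3.24 in C24 and 4.54 in Col-0 (interaction -1.30 ± 0.33, adjusted p = 0.0203). In all 7 genes the second Col-0 pool of 8-9 d was the lowest of its group, by 0.38 in MSRB6 and by 0.98 (AT3G02480) to 2.25 (AT1G62210) in the others. Without it the interactions were -3.48 for AT1G62210, -2.18 for MSRB6, -1.73 for AT1G14950, -1.63 for AT2G40460, -1.54 for AT1G05450, -0.94 for AT1G03890 and -0.97 for AT3G02480, and that of AT3G02480 no longer passed (adjusted p = 0.0555). The call of AT3G02480 was lost in 5 and that of AT1G03890 in 8 of the 12 fits that left out 1 array, and both were lost with trend and robust moderation (adjusted p = 0.0872 and 0.145). In MSRB6, AT1G05450, AT1G14950 and AT1G03890 every C24 pool still lay above every Col-0 pool at 10-11 d, by mean differences of 0.51, 0.41, 0.25 and 0.20 that did not pass. Group means of the 7 genes at 10-11 d ran from 11.13 (MSRB6 in Col-0) to 13.59 (AT1G03890 in C24). Whether differences between such high signals are compressed was not tested.

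A second set was higher in Col-0 at 8-9 d and fell there, alone or by more than in C24. The clearest was AT1G11590, of the pectin methylesterase family, enzymes that modify cell wall pectin. Its pools read 3.50, 3.67 and 3.76 in C24 and 3.63, 3.55 and 3.56 in Col-0 at 10-11 d, against 3.65, 3.44 and 3.60 in C24 and 6.92, 6.64 and 6.36 in Col-0 at 8-9 d. The 3 Col-0 pools of 8-9 d stood alone above the floor. The Col-0 step was -3.06 and the C24 step 0.08 (interaction 3.14 ± 0.18, adjusted p = 9.75e-10). AT2G43660, with a carbohydrate-binding X8 domain, read 4.51, 4.74 and 4.39 in C24 and 4.73, 4.79 and 5.05 in Col-0 at 10-11 d, and 4.89, 4.56 and 4.85 in C24 and 7.77, 7.83 and 7.44 in Col-0 at 8-9 d (interaction 2.60 ± 0.18). AT2G15325, of the lipid transfer protein family, fell by 3.50 in Col-0, with an interaction of 3.01 ± 0.49 (adjusted p = 0.00048). Its pools were uneven, at 5.51, 4.04 and 3.99 in C24 at 8-9 d and 6.63, 5.18 and 4.97 in Col-0 at 10-11 d. In AT1G11590, AT2G43660 and AT2G15325 the C24 means were under 5 at all 3 stages, so no earlier fall in C24 was seen. Whether their probes bind C24 sequence less well was not tested.

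AT3G50990, which encodes the peroxidase PER36 that loosens the outer wall for mucilage release from the seed coat, was also of this kind. It read 5.24, 5.13 and 5.38 in C24 and 5.63, 5.51 and 5.56 in Col-0 at 10-11 d, and 6.08, 6.13 and 6.75 in C24 and 8.46, 8.72 and 8.21 in Col-0 at 8-9 d. It fell in both accessions, with steps of -1.07 in C24 and -2.89 in Col-0 (interaction 1.82 ± 0.22, adjusted p = 1.49e-05). AT3G23450 had an interaction of 2.52 ± 0.27 with the same course. AT2G01610, of the pectin methylesterase inhibitor family, fell in both accessions, with steps of -0.88 in C24 and -2.73 in Col-0, and ended higher in C24, with a difference of 0.33 at 10-11 d after -1.52 at 8-9 d.

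Another set had no called difference at 8-9 d and rose more in C24. AT1G14930, of the major latex protein family, read 7.42, 7.98 and 7.97 in C24 and 5.83, 5.57 and 6.07 in Col-0 at 10-11 d, and 3.67, 3.69 and 3.63 in C24 and 3.87, 4.13 and 4.09 in Col-0 at 8-9 d. The C24 step was 4.13, the Col-0 step 1.79 and the interaction 2.33 ± 0.20 (adjusted p = 1.55e-07). At 12-13 d its pools read 10.96, 10.88 and 10.70 in C24 and 10.57, 10.35 and 10.29 in Col-0, so the gap of 1.97 was down to 0.44. AT2G18480, of the polyol and monosaccharide transporter family, read 8.48, 8.73 and 8.72 in C24 and 6.81, 6.31 and 7.30 in Col-0 at 10-11 d, from 5.31, 5.09 and 5.18 in C24 and 5.43, 5.52 and 5.46 in Col-0 at 8-9 d. Its interaction was 2.12 ± 0.22, and its difference of 1.84 at 10-11 d was followed by 0.36 at 12-13 d (adjusted p = 0.12). AT1G30700, of the berberine bridge enzyme-like oxidases, followed the same course, with a difference of 1.95 at 10-11 d and 0.41 at 12-13 d (adjusted p = 0.29). In AT1G14930 and AT2G18480 every Col-0 pool lay above every C24 pool at 8-9 d, with differences of -0.36 and -0.28 (adjusted p = 0.073 and 0.25). The 8-9 d means of AT1G14930 and AT1G30700 lay under 5 in both accessions, where differences are compressed.

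Other genes that rose more in C24 were still higher there at 12-13 d. AT1G74010, of the strictosidine synthase-like family, read 6.57, 6.75 and 6.24 in C24 and 4.29, 4.42 and 4.52 in Col-0 at 10-11 d, and 4.51, 4.89 and 4.60 in C24 and 4.38, 4.36 and 4.44 in Col-0 at 8-9 d. The Col-0 pools stayed near the floor, and the interaction was 1.84 ± 0.19. C24 was higher by 2.11 at 10-11 d and by 1.20 at 12-13 d, so the gap narrowed (difference between the steps to 12-13 d -0.91, adjusted p = 0.00673). AT1G22550, of the NPF transporter family, rose by 1.69 in C24, against a step of -0.01 in Col-0, and was higher in C24 by 1.63 at 10-11 d and 2.54 at 12-13 d. AT5G38780, of the SABATH methyltransferases that act on small acids, rose by 1.70 in C24 (Col-0 step 0.05), and its difference went on to 3.80 at 12-13 d. AT2G15960 and the terpene synthase family gene AT1G48800 rose in both accessions but by more in C24, each with an interaction of 1.85. AT2G32190, of a family of small cysteine-rich membrane proteins, was lower in C24 at all 3 stages, by a difference of -3.85 at 8-9 d, -1.82 at 10-11 d and -1.76 at 12-13 d, and rose by more there, with steps of 3.76 in C24 and 1.73 in Col-0 (interaction 2.03 ± 0.22). The glucosyltransferase gene UGT85A7 (interaction 1.41 ± 0.15) and the glutathione transferase gene GSTU26 (1.45 ± 0.14) rose in C24 alone, and the difference of GSTU26 was 3.21 at 10-11 d and 2.72 at 12-13 d.

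A further set rose in Col-0 and little or not at all in C24. CuAO1, a copper amine oxidase that breaks down polyamines, read 4.48, 4.62 and 4.46 in C24 and 7.06, 6.94 and 7.22 in Col-0 at 10-11 d, and 4.43, 4.42 and 4.31 in C24 and 4.98, 4.71 and 4.84 in Col-0 at 8-9 d. The C24 pools were near the floor at every stage, and the interaction was -2.09 ± 0.13 (adjusted p = 2.37e-09). AT5G54020, with Cys- and His-rich C1 domains, read 4.19, 4.30 and 4.14 in C24 and 6.50, 6.47 and 6.43 in Col-0 at 10-11 d, and its accessions overlapped at 8-9 d, at 4.07, 4.09 and 4.39 in C24 and 4.13, 4.43 and 4.14 in Col-0. Its interaction was -2.21 ± 0.15, and the difference was -3.05 at 12-13 d. AT4G14980, another C1 domain gene, had an interaction of -2.41 ± 0.18 and a difference of -4.03 at 12-13 d. The LEA gene AT2G23110 rose by 2.72 in Col-0, against 0.36 in C24 (adjusted p = 0.11), and its difference was -2.56 at 10-11 d and -3.73 at 12-13 d.

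CYP78A9, a cytochrome P450 that promotes the growth of seeds and fruits, rose steeply in both accessions and crossed over. Its pools read 8.68, 8.96 and 9.05 in C24 and 10.77, 10.27 and 11.07 in Col-0 at 10-11 d, and 5.44, 5.48 and 5.61 in C24 and 4.54, 4.84 and 4.59 in Col-0 at 8-9 d. C24 was higher by 0.86 at first, and its difference from Col-0 was -1.81 at 10-11 d and -1.57 at 12-13 d. The steps were 3.38 in C24 and 6.05 in Col-0, and the interaction was -2.67 ± 0.20 (adjusted p = 3.97e-08). AT2G19320 crossed over in the same direction, from a difference of 1.03 to one of -1.56 (interaction -2.59 ± 0.25). Its neighbour on the chromosome, the small heat shock protein gene AT2G19310, crossed the other way: it read 7.55, 7.80 and 7.63 in C24 and 7.09, 7.09 and 7.02 in Col-0 at 10-11 d, and 5.71, 5.24 and 5.23 in C24 and 6.73, 6.48 and 6.54 in Col-0 at 8-9 d (interaction 1.79 ± 0.15).

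**Figure D3:**
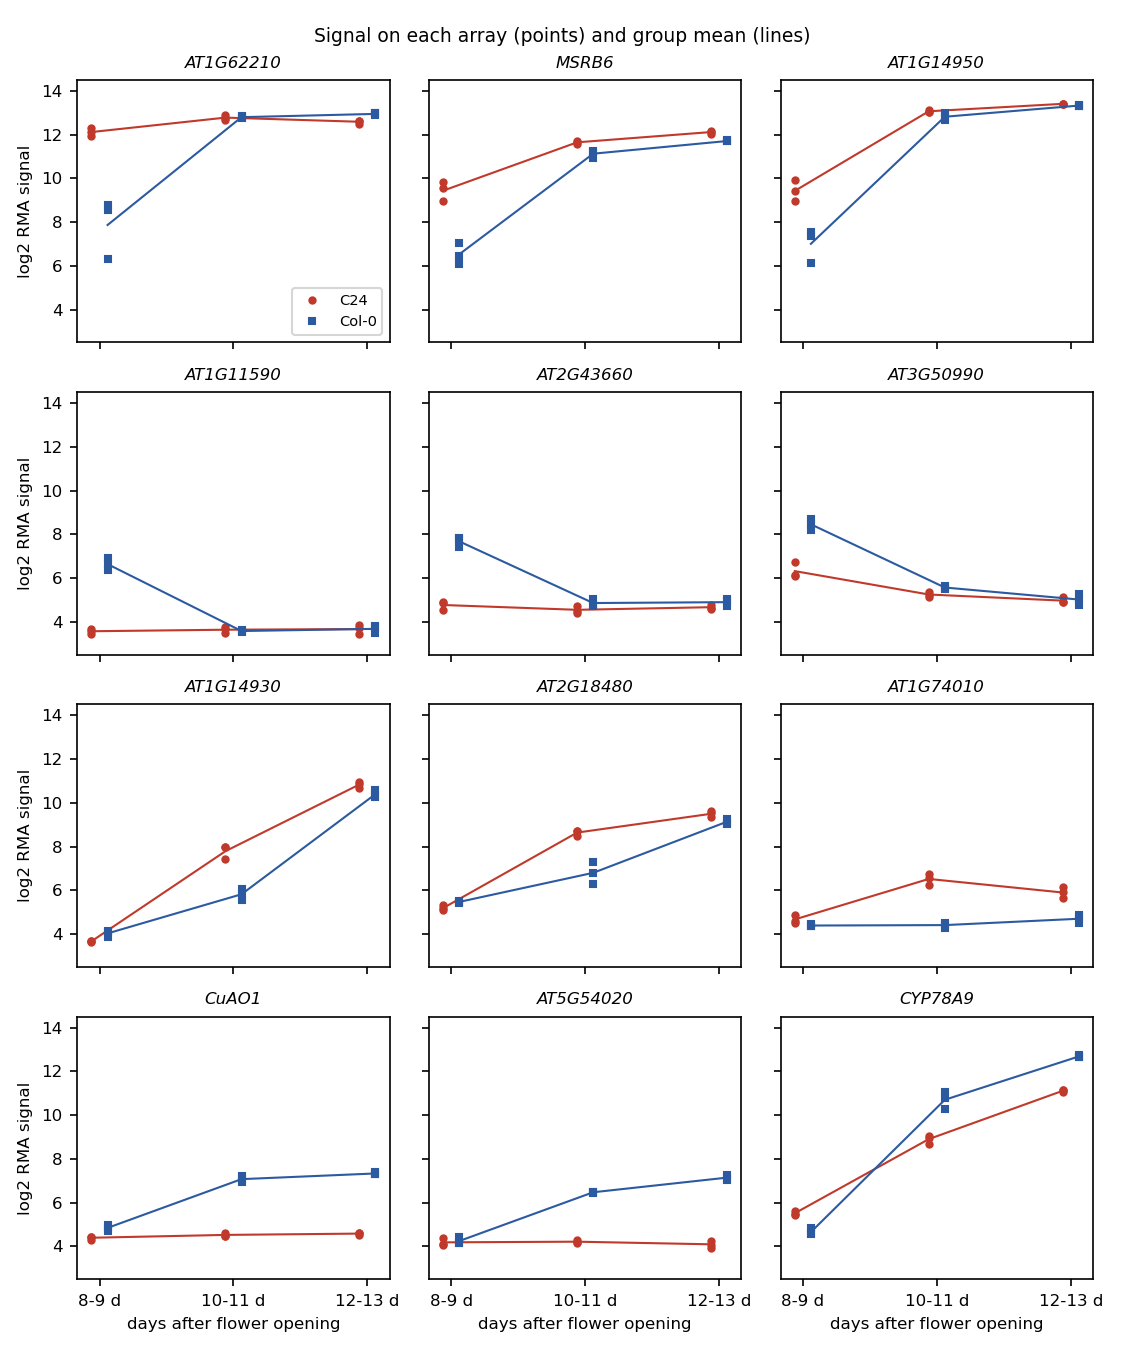
Log2 RMA signal (vertical axis) by days after flower opening (horizontal axis) for 12 genes, with 1 point per array, 3 arrays a group, and lines through group means (C24 red circles, Col-0 blue squares). From the top, the rows hold genes higher in C24 at 8-9 d, genes lower in C24 at 8-9 d, genes that rose more in C24, and genes that rose more in Col-0.

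Other genes fell in C24. AT5G41250, of the exostosin family of glycosyltransferases, read 7.15, 6.99 and 7.08 in C24 and 4.21, 5.09 and 4.52 in Col-0 at 10-11 d, and 9.80, 10.12 and 10.31 in C24 and 5.10, 4.37 and 4.35 in Col-0 at 8-9 d. C24 was higher throughout, by 5.47, then 2.46, then 1.5 at 12-13 d. The C24 step was -3.0 and the Col-0 step 0.00 (interaction -3.0 ± 0.28, adjusted p = 7.36e-07). EXO, which promotes cell expansion, read 6.55, 5.98 and 5.77 in C24 and 8.01, 7.96 and 7.84 in Col-0 at 10-11 d, from 8.36, 8.55 and 8.36 in C24 and 8.27, 8.45 and 8.39 in Col-0 at 8-9 d. Its difference of -1.84 at 10-11 d was followed by -0.19 at 12-13 d (adjusted p = 0.47). AT1G62410, with an MIF4G domain, fell by 2.29 in C24 (interaction -2.03 ± 0.19), and AT5G51950 had steps of -3.89 in C24 and -2.38 in Col-0 (interaction -1.51 ± 0.23).

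Among genes that moved in opposite directions, AT1G75280, an isoflavone reductase-like oxidoreductase, read 9.78, 9.77 and 9.64 in C24 and 9.19, 9.24 and 9.40 in Col-0 at 10-11 d, and 8.84, 7.93 and 7.92 in C24 and 10.54, 10.57 and 10.44 in Col-0 at 8-9 d. It rose by 1.5 in C24 and fell by 1.24 in Col-0 (interaction 2.75 ± 0.23, adjusted p = 1.21e-07). AT3G43960, of the papain-type cysteine proteases, rose by 0.56 in C24 and fell by 1.99 in Col-0, and AT3G58540 rose by 1.18 in C24 and fell by 0.66 in Col-0. The reverse was seen for AT3G27220, with kelch repeats, which fell by 0.58 in C24 and rose by 1.52 in Col-0. The germin-like gene AT3G04200 fell by 0.75 in C24 and rose by 1.25 in Col-0. XTH16, a xyloglucan endotransglucosylase that remodels cell walls, read 5.92, 6.41 and 6.0 in C24 and 6.92, 6.97 and 7.17 in Col-0 at 10-11 d, and 6.83, 6.70 and 6.32 in C24 and 5.39, 5.62 and 5.74 in Col-0 at 8-9 d. It fell by 0.50 in C24 and rose by 1.43 in Col-0, and at 12-13 d the accessions overlapped.

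Gene lists for seed processes were then counted, beside the 6.54% of all probe sets with a called interaction and their median of 0.03. None of 6 oil body and storage lipid genes had a called interaction, nor of 7 replication and mitosis genes, all of which fell in both accessions, nor of 8 nuclear photosynthesis genes, of which 7 fell in C24 and 6 in Col-0. These lists hold few measured genes, 6 of 28, 7 of 47 and 8 of 56 list loci. An interaction that was not called does not show equal steps. At an unadjusted p under 0.05 the interaction passed for 0 oil body, 1 replication and mitosis and 3 photosynthesis genes. It passed at that threshold for 4505 of all 22746 probe sets. All 5 measured storage protein genes, of 13 in the list, rose in both accessions. Their interactions were negative, from -1.63 to -0.11 with a median of -0.39, and the interaction was called for AT1G03890 alone. The 4 measured maturation regulators, of 25 in the list, ran from -0.48 to -0.16 with none called. The smallest p belonged to BZIP53, a transcription factor that activates seed maturation genes, with -0.38 (adjusted p = 0.0893).

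Among 36 measured LEA genes, of 52 in the list, 2 had a positive and 4 a negative called interaction, and the median was 0.00. Besides AT2G23110 and AT3G02480, the negative ones were the dehydrin gene COR47 (-1.20) and AT3G17520 (-1.05), both named after their values were seen. COR47 averaged 6.27 in C24 and 7.51 in Col-0 at 10-11 d, and 7.61 in C24 and 7.65 in Col-0 at 8-9 d, with steps of -1.33 in C24 and -0.13 in Col-0. The positive ones were AT2G18340 (0.75, adjusted p = 0.0429) and AT2G03850 (0.49, adjusted p = 0.041), whose group means at these stages were under 5 and whose calls were lost in 10 and 11 of the 12 fits without 1 array. For 15 of the 36 genes, all 4 group means lay under 5.

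Of 5 sugar export and starch genes, APL4 and APL3, large subunits of the ADP-glucose pyrophosphorylase that starts starch synthesis, were called. APL4 read 3.56, 3.27 and 3.29 in C24 and 3.81, 3.79 and 3.48 in Col-0 at 10-11 d, and 5.02, 5.52 and 5.26 in C24 and 4.76, 4.32 and 4.72 in Col-0 at 8-9 d (interaction -0.98 ± 0.19). APL3 read 4.32, 4.33 and 4.34 in C24 and 5.13, 4.88 and 5.03 in Col-0 at 10-11 d, and 5.80, 5.75 and 5.81 in C24 and 5.73, 5.80 and 5.96 in Col-0 at 8-9 d (interaction -0.64 ± 0.13). Both fell further in C24, to means of 3.37 (APL4) and 4.33 (APL3), under 5, where differences are compressed. The Col-0 means of APL4 were also under 5, at 4.60 and then 3.69, and APL4 had been higher in C24 at 8-9 d, by 0.67. The list's other 3 genes, among them the sucrose exporter gene SWEET11 (-0.17), had no called interaction. Of 11 plastid fatty acid synthesis genes, the stearoyl-ACP desaturase family gene AT5G16230 (0.48) and the thioesterase gene FATB (-0.47) were called, each of which lost its call in 8 of the 12 fits without 1 array.

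In the seed coat lists, all 3 measured flavonoid and tannin genes, of 20 in the list, fell in both accessions, and none was called. Their interactions were 0.63 for BAN, an anthocyanidin reductase of tannin synthesis, 0.41 for DFR (adjusted p = 0.0734) and 0.26 for UGT80B1. DFR read 7.85, 7.99 and 7.82 in C24 and 8.22, 8.26 and 7.99 in Col-0 at 10-11 d, and 9.67, 9.75 and 9.88 in C24 and 10.50, 10.30 and 10.56 in Col-0 at 8-9 d. Of 5 mucilage genes, AT3G50990 had a positive and AT2G22900, of the galactosyltransferase family, a negative called interaction (-0.55, adjusted p = 0.0288, lost in 5 of the 12 fits without 1 array). None of 7 glucosinolate genes, 6 endosperm markers or 2 silique wall markers was called. The 9 reference genes ran from -0.19 to 0.25 with none called.

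**Figure D4:**
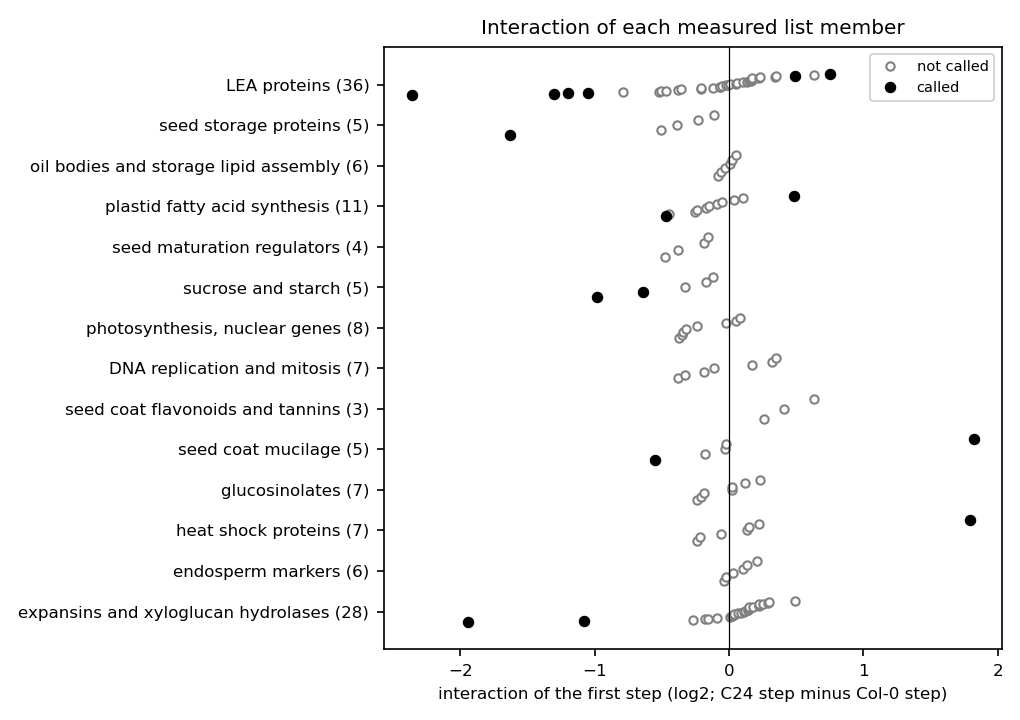
Interaction of the first step (horizontal axis, log2, C24 step minus Col-0 step) for each measured member of 14 gene lists (vertical axis, with the number measured), filled where called. Storage protein and maturation regulator genes all lie left of 0 with 1 called between them, and the called LEA genes lie on both sides.

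Other gene families were counted beside the same 6.54%. Of 24 cytochrome P450 genes, CYP71B34 (0.83) and CYP78A9 were called, and of 13 glutathione transferase genes GSTU26. Among 43 UDP-glycosyltransferase genes the interaction was positive for UGT85A7 and UF3GT (0.75) and negative for UGT87A2 (-1.24), which rose in Col-0 alone. AGL19, a MADS box gene that promotes flowering, was the only called gene among 44 MADS box probe sets, of which 33 had all 4 means under 5. It rose in C24 alone, at 5.51, 5.46 and 5.55 in C24 and 4.11, 3.96 and 3.98 in Col-0 at 10-11 d. Of 28 expansin and xyloglucan hydrolase genes, XTH16 and EXPA9 (-1.08) were called. Of 7 heat shock protein genes AT2G19310 was called. None was called of 4 defensin-like genes, 1 F-box gene (CEG), 1 jasmonate gene (JMT, 0.32) and 1 salicylic acid gene (SAG101, -0.06). None of the 4 pectin methylesterase and inhibitor genes of the list was called. That list, like most family lists here, was drawn by matching gene symbols and synonyms and missed members. Genes of these families met outside it were AT1G11590 (3.14), AT2G01610 (1.85), AT5G51490 (-1.48) and AT5G51500 (-1.68). They were named because they were called. Other members outside the list were not counted, so no share of the families can be given. The subtilase gene SBT4.13 (0.83) fell in both accessions, with steps of -1.29 in C24 and -2.12 in Col-0.

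The 69 probe sets of the plastid genome leaned to negative interactions, with a median of -0.38 against 0.03 over all probe sets. In C24 28 of them fell and 5 rose, and in Col-0 9 fell and 4 rose. Of all 22746 probe sets 5351 fell and 4707 rose in C24, and 4575 fell and 3828 rose in Col-0. Only psbT, a photosystem II subunit gene (interaction -1.94 ± 0.52, adjusted p = 0.027), and rpoA, an RNA polymerase subunit gene named after its values were seen, had called interactions. These were 2 of 69, beside 6.54% of all probe sets. The gene rpoA read 9.16, 9.20 and 9.18 in C24 and 9.90, 9.82 and 10.04 in Col-0 at 10-11 d, and 9.88, 10.06 and 9.98 in C24 and 10.10, 10.07 and 10.24 in Col-0 at 8-9 d (interaction -0.58 ± 0.14, adjusted p = 0.011). In psbT the C24 pools of 10-11 d read 5.05, 5.26 and 7.21, with 1 pool far above the others, and its call was lost in 7 of the 12 fits without 1 array. The median over the 69 varied between pools of a group, from 7.76 to 7.96 in C24 and 7.88 to 8.36 in Col-0 at 10-11 d, and from 7.77 to 8.36 in C24 and 8.23 to 8.40 in Col-0 at 8-9 d. Leaving out 1 array at a time gave median interactions from -0.46 to -0.23. The number that fell then ran from 20 to 33 in C24 and from 7 to 11 in Col-0.

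The differences at 12-13 d come from arrays that do not enter the interaction's estimate, although they share in the estimate of the spread. At that stage 5008 of all probe sets differed (22%), 12.2% higher in C24 and 9.79% lower. Of the 318 called interactions that were higher in C24 at 10-11 d alone, 126 (39.6%) were again higher at 12-13 d, 19 (5.97%) were lower and 173 did not pass. Of the 232 that were lower in C24 at 10-11 d alone, 120 (51.7%) were again lower, 10 (4.31%) were higher and 102 did not pass. Of the differences called at 8-9 d alone and lower in C24, 21.1% were again lower at 12-13 d, 7.33% were higher and 71.6% did not pass. Of those called at 8-9 d alone and higher in C24, 22.9% were again higher, 7.33% were lower and 69.8% did not pass. The shares in the same direction were above the 9.79% and 12.2% of all probe sets. Median differences of the genes higher in C24 at 10-11 d alone were -0.09 at 8-9 d, 0.61 at 10-11 d and 0.20 at 12-13 d. Those of the genes lower in C24 at 10-11 d alone were 0.08 at 8-9 d, -0.61 at 10-11 d and -0.33 at 12-13 d. With reference gene scaling, which shifted the 12-13 d difference of all probe sets by -0.09, the overall split of 2781 higher and 2227 lower became 1610 and 3196. Under it 84 of 267 were again higher and 22 lower, and 138 of 215 again lower and 3 higher.

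**Figure D5:**
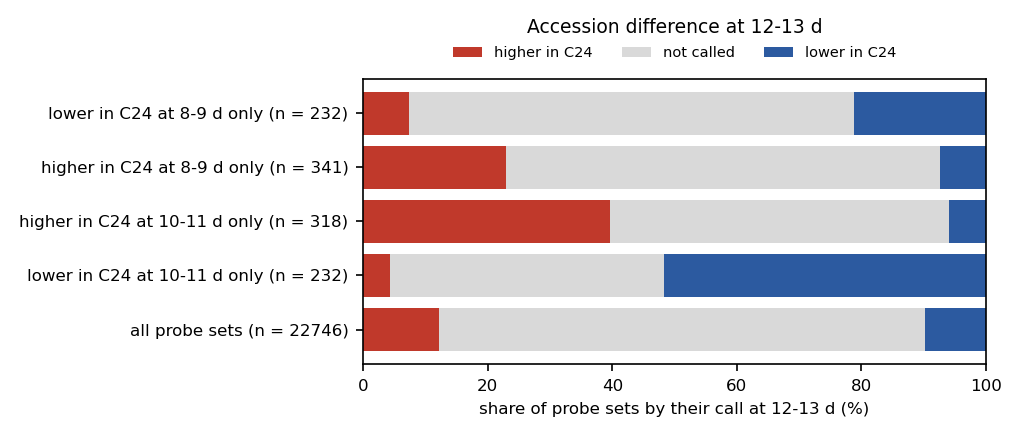
Share of probe sets (horizontal axis, percent) that were higher in C24, not called or lower in C24 at 12-13 d, for called interactions sorted by when the accessions differed, with all probe sets in the bottom row. Gaps that opened at 10-11 d were called again in the same direction in 39.6% and 51.7%.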

How the data were processed

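RNA of pooled developing seeds was measured on Affymetrix arrays. The deposited values are log2 signals made by the authors with RMA, per the submitters' processing notes. The sources used here do not give its version. Because RMA equalises the distributions of arrays, a shift common to all transcripts would be lost. An array has no read depth, and the number of arrays limits the precision. The 64 control probe sets were left out.

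Groups came from the sample titles. In limma 3.58.1 (R 4.3.3), 6 group means were fitted over the 18 arrays (lmFit, eBayes, 12 residual and 8.331 prior degrees of freedom), and p-values were adjusted by Benjamini-Hochberg over 22746 probe sets and called under 0.05. The procedure was also run on simulated arrays with independent noise, which cannot show its error rate if pools share plants. Every adjusted p in the text is from limma. Of the probe sets, 13513 (59.4%) had 1 gene in the platform annotation, 503 had several and 8730 were not listed. Symbols came from RefSeq, through which 13436 had a locus. Whether probes cross-hybridise between related genes or bind C24 sequence less well was not tested.

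Genes named were the 15 highest and 15 lowest called with 1 gene, up to 3 of each class of steps and sign, and of each list the 2 highest and 2 lowest called members or else the one with the smallest p. Other genes named are outside this rule. Among them are the list members ALC, BAN, UGT80B1 and SWEET11, which are not marked where they are named. The gene lists and the questions were chosen with earlier results of these data known. The plastid list was drawn by chromosome after the files were seen. A list gene counts as measured where a probe set had it as its 1 annotated gene, so list genes may be on the array without being counted. Lists with no measured gene were not analysed here. Alternatives were the 12 arrays of the first stages alone, reference gene scaling, quantile normalization, a mean above 5, trend and robust moderation, the replicate number as a block, and leaving out each of the 12 arrays.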

Additional observations from a re-analysis of the deposited data

Results flagged for a closer look

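The step of C24 differed from the step of Col-0 by limma's interaction test for 1488 probe sets, and among the named genes for the following, given by their interaction on the log2 scale (C24 step minus Col-0 step).

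Genes lower in C24 at 8-9 d that fell more in Col-0, or in Col-0 alone, had 3.14 (AT1G11590), 3.01 (AT2G15325), 2.60 (AT2G43660), 2.52 (AT3G23450), 1.85 (AT2G01610), 1.82 (AT3G50990), 0.83 (SBT4.13) and 0.49 (AT2G03850). Genes that rose more in C24, or in C24 alone, had 2.33 (AT1G14930), 2.12 (AT2G18480), 2.03 (AT2G32190), 1.96 (AT1G30700), 1.85 (AT1G48800 and AT2G15960), 1.84 (AT1G74010), 1.79 (AT2G19310), 1.69 (AT1G22550), 1.65 (AT5G38780), 1.45 (GSTU26), 1.41 (UGT85A7), 0.87 (AGL19), 0.83 (CYP71B34), 0.75 (AT2G18340) and 0.48 (AT5G16230). Genes that rose in C24 and fell in Col-0 had 2.75 (AT1G75280), 2.55 (AT3G43960), 1.84 (AT3G58540) and 0.75 (UF3GT).

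Genes that rose more in Col-0, or in Col-0 alone, had -4.27 (AT1G62210), -2.67 (CYP78A9), -2.59 (AT2G19320), -2.41 (AT4G14980), -2.40 (MSRB6), -2.36 (AT2G23110), -2.21 (AT5G54020), -2.17 (AT1G14950), -2.09 (CuAO1), -2.06 (AT2G40460), -2.04 (AT1G05450), -1.63 (AT1G03890), -1.30 (AT3G02480), -1.24 (UGT87A2), -1.08 (EXPA9) and -0.47 (FATB). Genes that fell more in C24, or in C24 alone, had -3.0 (AT5G41250), -2.03 (AT1G62410), -1.94 (psbT), -1.89 (EXO), -1.51 (AT5G51950), -1.30 (AT3G19515), -0.98 (APL4), -0.64 (APL3) and -0.55 (AT2G22900). Genes that fell in C24 and rose in Col-0 had -2.11 (AT3G27220), -2.0 (AT3G04200) and -1.94 (XTH16). In AT4G20830 (0.50), AT4G08220 (-0.46) and AT2G41250 (-0.39) neither step passed alone, and their calls were lost in 11, 9 and 10 of the 12 fits without 1 array.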

How the results depend on the processing

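The number of called interactions stayed within 1.5 times of 1488 under every alternative run except a size threshold: it was 1542 with the 12 arrays of the first stages, 1345 with reference gene scaling (585 positive and 760 negative), 1505 with quantile normalization, 1397 among probe sets with a mean above 5, 1570 with trend and robust moderation, and 1050 to 1582 without 1 array. Requiring a 2-fold interaction left 349. The fit with the replicate block gave 1505, of which 1412 were shared, and ended the call of 1 of the 59 called named genes, AT2G41250 (adjusted p = 0.0616). Deviations of same-numbered arrays correlated at -0.144 to 0.17, above 0.1 in 6 of 18 pairs, against 5 of 36 differently numbered pairs, and 5 of 12 arrays correlated best with their own number, so a pairing was not established. No interaction of these 59 changed sign. Their calls ended for 5 with the 12 arrays, 3 with reference gene scaling, 6 with quantile normalization, 6 with trend and robust moderation, and 12 in at least 1 fit without an array, while the 50 with a mean above 5 kept theirs. DFR passed in 2 of the 12 fits without 1 array (adjusted p = 0.0424 and 0.0483). Leaving out the first C24 pool of 8-9 d moved AT3G19515 from -1.30 to -0.86. Values under 5 are compressed, and 3 pools a group limit the precision. The 3' minus 5' signal of 6 control pairs had interactions from 0.00 to 0.34. Between accessions it differed most in the second actin pair, with group means of 0.03 to 0.13 in C24 and 2.73 to 3.26 in Col-0. The first actin pair was also lower in C24 at each stage, and the GAPDH and ubiquitin pairs differed by less. The part of these signals in the results was not tested.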

Other observations

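Among 790 called genes that could be placed on the chromosomes by their order in RefSeq, 58 pairs had at most 1 gene between them, 28 of them none. The interactions of a pair had the same sign in 32 pairs and opposite signs in 26. How many pairs any 790 placed genes would form was not counted, so these numbers do not show that called genes lie together. The pairs named next were chosen after their values were seen. The major latex protein genes AT1G14930 and AT1G14950 had 2.33 and -2.17, the small heat shock protein gene AT2G19310 and its neighbour AT2G19320 had 1.79 and -2.59, and the methionine sulfoxide reductase genes MSRB5 and MSRB6 had 0.97 and -2.40. The pectin methylesterase family genes AT5G51490 and AT5G51500 had -1.48 and -1.68, and the sugar transporter genes SFP1 and SFP2 had -1.13 and -0.66.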
